A study of Pistacia vera with 20 samples.

Results

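Ripening of intact hulls of the pistachio cultivar Golden Hills was followed by comparing hull transcripts at 133 days post anthesis with those at 91 days. The comparison used 7 of the 20 libraries in the series, chosen by their labels: 4 of intact hulls at 91 d and 3 of intact hulls at 133 d. All genes of the table were examined, 39783 in number, and 19716 of them were expressed well enough to be tested. The hull is the fleshy outer part of the pistachio fruit, labelled exo-mesocarp, and encloses the shell and the seed. The series also holds Golden Hills hulls that had become tattered and Lost Hills hulls that were intact or cracked, and its design sets hull phenotype, cultivar and age against each other. Trees of both cultivars (Pistacia vera) were grown commercially in an orchard, with no treatment named. At 133 d the hulls compared here were only those scored intact. The labels call the replicates bioreps without saying whether they came from separate trees, so the p-values measure a spread between samples that may be partly technical. That spread was pooled within groups over all 20 libraries, so Lost Hills, tattered and cracked hulls contributed to it.

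During ripening, fleshy fruit parts soften as enzymes cut the pectins and the xyloglucan of their cell walls. Green parts dismantle their photosystems and chlorophyll and often lay down carotenoids or anthocyanins. Ethylene and abscisic acid are the hormones best known for driving these steps in other fruits, and auxin is known for delaying them.

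Expression is given as FPKM (fragments per kilobase of gene, scaled for depth), a value per gene length, in the order of replicates 1 to 4 at 91 d and 1 to 3 at 133 d. Log2 changes are differences of mean log2(FPKM + 1), 133 d minus 91 d, with the standard error (SE) of limma's fit, and understate the change of genes with low expression. A gene is called higher or lower when its two-sided limma p, adjusted by the Benjamini-Hochberg method over all genes tested, was under 0.05. Gene identifiers are shortened by leaving out the prefix evm_TU_ptg0000, so that 24l_682 stands for evm_TU_ptg000024l_682. Gene names are the protein names in the deposited table, and many come from other plants.

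Reads assigned to genes numbered 16505082 to 18609861 per library, and 22377 to 23198 genes had a read. Across genes, log2 values of replicates correlated at 0.967 to 0.983 at 91 d and 0.968 to 0.990 at 133 d, against 0.859 to 0.877 across ages. At 91 d, replicates 2 and 3 of Golden Hills held reads of genes otherwise seen in Lost Hills. Of 12 genes found only in Lost Hills at 133 d, 12 were above 3 reads in replicate 2, with a median level 27.1% as high as in Lost Hills. In replicate 3 of 91 d 11 were above 3 reads, with a median of 9.15%. Replicates 1 and 4 of 91 d had medians of 0.0%. Such genes were picked as having at most 3 reads in Golden Hills at 133 d. The medians of 0.0% there, over 13 genes, were therefore fixed by that choice. Because of the reads in replicates 2 and 3 of 91 d, counts are also given without these 2. At 133 d, replicate 1 stood apart from the others: the chi-square of read counts per gene was 55.4 and 55.1 against replicates 2 and 3, and 8.51 between those. Without it 8477 genes were called.

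A large part of the hull transcriptome differed between the ages. Limma called 8932 of 19716 genes (45.3%), 4566 higher (23.2%) and 4366 lower (22.1%) at 133 d, and 10231 genes had an unadjusted p under 0.05. The log2 change was at least 1 in size for 3037 called genes, 1502 higher and 1535 lower. It was at least 3 in size for 327, of which 206 were higher. The 2 ages did not overlap for 9028 genes (45.8%). The median SE was 0.17 and the median log2 change of all genes was -0.03. With TPM in place of the deposited scale that median became -0.18 and 34.8% of calls were higher, against 51.1% on the deposited scale. With library totals these were -0.16 and 34.98%. Without replicates 2 and 3 of 91 d, 6686 genes were called, and 6511 of these were among the 8932 with the same direction. When the fit held only the groups compared, 7700 genes were called, and 7382 of these were among the 8932 with the same direction.

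Among genes with a protein name, the largest rise belonged to Gibberellin-regulated protein 1 (24l_682), a small secreted cysteine-rich protein. Its libraries held 2.62, 0.767, 0.208 and 2.04 FPKM at 91 d and 1005, 973 and 1087 FPKM at 133 d. The log2 change was 8.86 ± 0.50 (SE), with an adjusted p of 1.30e-09. The desiccation-related protein PCC13-62 (19l_938), named for a protein of a resurrection plant, rose from under 1 FPKM in every library. At 91 d it stood at 0.733, 0.256, 0.121 and 0.662 FPKM, and at 133 d at 382, 839.8 and 825 FPKM. On the log2 scale this was 8.82 ± 0.42 (SE, adjusted p = 1.60e-10). A polygalacturonase (22l_142), an enzyme that cuts the pectin backbone, rose as well. It had 0, 0, 0 and 0.0479 FPKM at 91 d, and 274, 304 and 335 FPKM at 133 d. This was a log2 change of 8.23 ± 0.61 (SE, adjusted p = 2.16e-08). It went from no more than a trace to abundant, and the ages were far apart. Heparanase-like protein 3 (01l_771), a glycosyl hydrolase, and Laccase-14 (01l_3674), of the copper oxidases that polymerise phenolics, completed the 5 largest rises. Heparanase-like protein 3 rose from 3.60, 1.58, 2.18 and 3.59 FPKM to 639, 868.4 and 949 FPKM, a log2 change of 7.80 ± 0.33 (SE, adjusted p = 5.40e-11). Laccase-14 rose from 0.109, 0.626, 0.703 and 0.472 FPKM at 91 d to 360.1, 214 and 175 FPKM at 133 d (log2 change 7.36 ± 0.56 SE, adjusted p = 2.84e-08).

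The largest fall among genes with a protein name was that of Endochitinase EP3 (22l_420), a chitin-cutting defence enzyme. It had 617, 1474, 1684 and 607 FPKM at 91 d, and 5.001, 3.74 and 1.68 FPKM at 133 d. The log2 change was -7.86 ± 0.89 (SE), with an adjusted p of 2.13e-06. The allergen-like Fra a 1.07 (22l_2382), of the PR-10 family of small ligand-binding proteins, had no read at 133 d. Its libraries held 279, 178, 188 and 159 FPKM at 91 d and 0 FPKM in all 3 libraries at 133 d. With a floor of 3 reads in each library the fall was at least 969.8-fold. On the log2 scale this was -7.63 ± 0.33 (SE, adjusted p = 7.05e-11). Linoleate 13S-lipoxygenase 2-1 (08l_497), a plastid enzyme that feeds jasmonate synthesis, fell from 134, 189.6, 274 and 452 FPKM to 0.708, 0.906 and 0.436 FPKM, a log2 change of -7.15 ± 0.63 (SE, adjusted p = 1.24e-07). A non-specific lipid-transfer protein (24l_307), a small wall protein that binds lipids, fell from 936, 571, 569 and 1012 FPKM at 91 d to 4.22, 6.55 and 2.67 FPKM at 133 d (log2 change -7.15 ± 0.64 SE, adjusted p = 1.62e-07). Chalcone synthase H3 (22l_1500), the entry enzyme of flavonoid synthesis, fell from 127, 300.2, 579 and 162 FPKM to 4.01, 0.640 and 0.350 FPKM, a log2 change of -6.78 ± 0.91 (SE, adjusted p = 1.29e-05). In all 10 genes every library of one age lay above every library of the other, which the rule for naming them required. Members of tandem families such as the endochitinases share sequence, and how the authors' counting treated shared reads is not given in the sources used here.

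**Figure D1:**
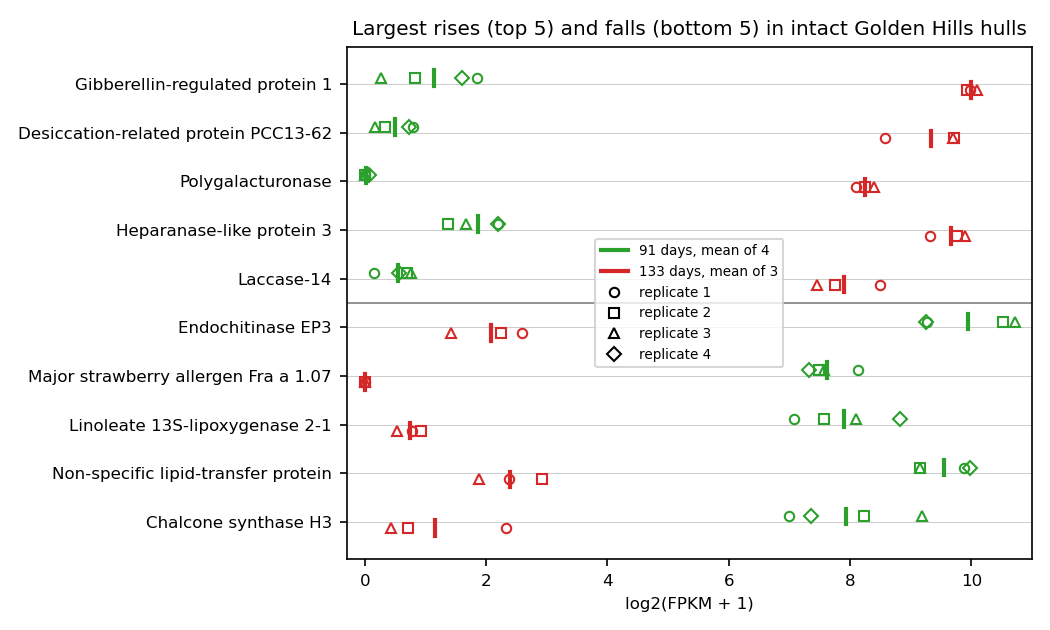
Expression of the 5 genes with a protein name that rose most and the 5 that fell most, as log2(FPKM + 1) on the horizontal axis, with 1 symbol per library and a bar at the mean of each age. No gene has overlapping ages, which was a condition of being named, and Fra a 1.07 lies at 0 in all 3 libraries of 133 d.

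Genes were also grouped into 33 lists by words in their protein names. A list is described by its called members among those tested, beside the 23.2% higher and 22.1% lower over all genes, and by its median log2 change, beside -0.03 for all genes. The lists with the largest excess of higher over lower calls were fatty acid synthesis, pectin enzymes and NAC transcription factors. Those with the largest excess of lower calls were photosystem proteins, terpene synthases and the Calvin cycle. Leaving out replicates 2 and 3 of 91 d, counts of higher calls went from 12 to 6 for cutin and wax, 10 to 6 for abscisic acid, 12 to 7 for WRKY factors and 35 to 17 for ribosomal proteins. Those of lower calls went from 11 to 7 for cellulose and callose and from 5 to 3 for chlorophyll synthesis.

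**Figure D2:**
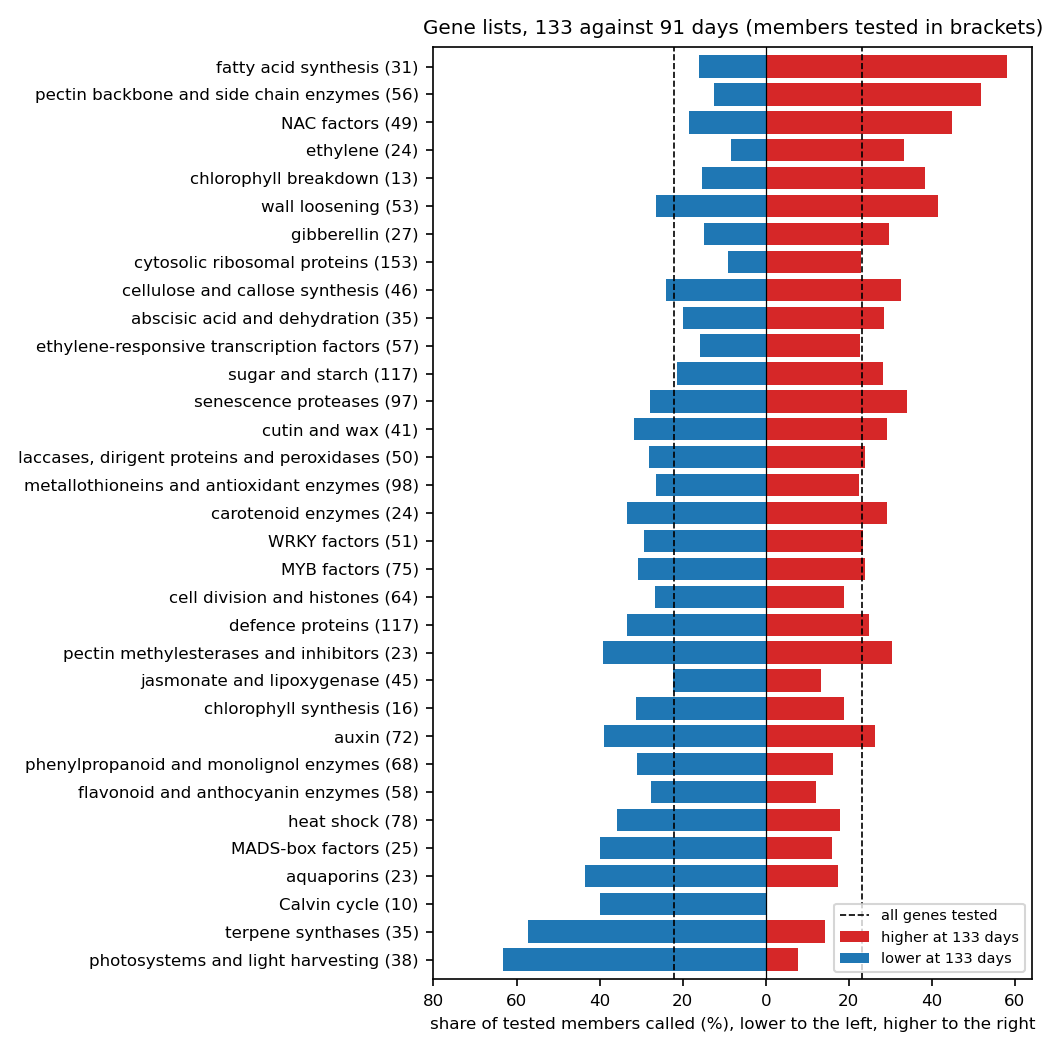
Share of the tested members of each list called higher (right) or lower (left) at 133 d, in percent, with the number tested in brackets. Dashed lines mark the shares over all genes, 23.2% higher and 22.1% lower. Fatty acid synthesis and pectin enzymes reach furthest beyond the line for higher calls, and photosystems beyond that for lower calls.

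More pectin-degrading enzymes rose than fell. Of 56 tested members of the list of pectin backbone and side chain enzymes, 29 were higher and 7 lower, with a median log2 change of 0.44, and without replicates 2 and 3 of 91 d they were 22 and 4. Their summed share of all transcripts (TPM) went from 0.195% ± 0.00317 (SD, n = 4) to 0.883% ± 0.0785 (SD, n = 3). Without replicate 2 of 133 d 4 were lower. Split by enzyme after values were seen, 7 of 8 arabinofuranosidases, 5 of 6 pectin acetylesterases, 9 of 21 polygalacturonases, 5 of 13 beta-galactosidases and 3 of 8 pectate lyases were higher. The numbers lower in these families were 0, 0, 5, 1 and 1. Besides the polygalacturonase above, pectate lyase 5 (24l_159), which cleaves pectin by elimination, rose to an abundant level. At 91 d it stood at 44.2, 55.7, 75.3 and 60.7 FPKM, and at 133 d at 1662, 2677 and 2952 FPKM. This was a log2 change of 5.32 ± 0.59 (SE, adjusted p = 1.59e-06). The lowest library of 133 d was at 1662 FPKM and the highest of 91 d at 75.3 FPKM. Lack of overlap was a condition of naming this gene.

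Rises of enzymes that trim pectin are shown by 3 genes chosen after their values were seen. Beta-galactosidase 01l_1184, which removes galactose, rose from 106, 88.0, 91.6 and 98.8 FPKM to 808, 474 and 585 FPKM, a log2 change of 2.65 ± 0.23 (SE, adjusted p = 9.38e-08). Alpha-L-arabinofuranosidase 1 (03l_1123), which removes arabinose, rose from 39.7, 41.9, 35.8 and 36.3 FPKM at 91 d to 403, 483 and 427 FPKM at 133 d (log2 change 3.47 ± 0.34 SE, adjusted p = 4.15e-07). Pectin acetylesterase 8 (19l_2564), which strips acetyl groups, rose from 408, 358, 273 and 277 FPKM to 1115, 838 and 977 FPKM, a log2 change of 1.58 ± 0.16 (SE, adjusted p = 6.48e-07). None of the 3 had overlapping ages. The fall named in this list was Beta-galactosidase 5 (01l_2460). It fell from 3.87, 6.34, 9.21 and 5.53 FPKM at 91 d to 3.24, 2.40 and 2.53 FPKM at 133 d (log2 change -0.91 ± 0.24 SE, adjusted p = 0.00491). With replicates 2 and 3 of 91 d left out, that fall was -0.60 (adjusted p = 0.0849).

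Pectin methylesterases, which remove methyl groups from pectin, and their protein inhibitors went both ways. Of 23 tested, 7 were higher and 9 lower, with a median log2 change of -0.12. Of these, 2 of 5 free inhibitors were higher and 0 lower, whereas 5 of 18 pectinesterases were higher and 9 lower, a division made after values were seen. Pectinesterase inhibitor 4 (04l_861) rose from 72.1, 46.9, 21.9 and 32.02 FPKM to 1237, 1343 and 1649.6 FPKM, a log2 change of 5.12 ± 0.36 (SE, adjusted p = 1.47e-08). A pectinesterase (17l_1250) fell from 77.1, 81.5, 116 and 95.8 FPKM at 91 d to 11.1, 9.78 and 7.25 FPKM at 133 d (log2 change -3.17 ± 0.32 SE, adjusted p = 6.26e-07). Pectinesterase 3 (21l_423) fell from 4.71, 11.1, 16.7 and 8.58 FPKM to 3.04, 2.31 and 2.79 FPKM, a log2 change of -1.49 ± 0.36 (SE, adjusted p = 0.00284). The inhibitor and the 2 pectinesterases moved in opposite directions without overlap between ages. The naming rule required both, as it takes the largest rise and falls of a list. The fall of Pectinesterase 3 was -0.999 (adjusted p = 0.0608) without replicates 2 and 3 of 91 d.

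Among proteins that loosen the xyloglucan and cellulose network, 22 of 53 were higher and 14 lower, with a median log2 change of 0.17. Xyloglucan endotransglucosylases (XTHs), which cut and rejoin xyloglucan, had 14 of 23 higher and 2 lower. Expansins, which slide polymers apart, had 4 of 16 higher and 6 lower. Endoglucanases had 3 of 10 in each direction, and mannanases had 1 of 4 higher and 3 lower. These counts, and all other counts of families within a list, were drawn up after values were seen.

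The XTH gene 01l_392 had the largest named rise of the list. It rose from 4.46, 6.01, 7.49 and 9.55 FPKM at 91 d to 199, 109 and 132 FPKM at 133 d (log2 change 4.23 ± 0.54 SE, adjusted p = 7.02e-06). XTH 01l_403 rose from 0.235, 0.148, 0.140 and 0.0509 FPKM to 15.4, 15.2 and 18.2 FPKM, a log2 change of 3.92 ± 0.41 (SE, adjusted p = 8.03e-07). By contrast XTH 19l_1982 fell from 165, 190.1, 197 and 134 FPKM at 91 d to 20.5, 18.7 and 17.7 FPKM at 133 d (log2 change -3.10 ± 0.28 SE, adjusted p = 1.60e-07). Endoglucanase 8 (24l_1465), of the family that cuts glucan chains, fell from 7.72, 5.51, 22.4 and 14.8 FPKM to 0.341, 0.249 and 0.220 FPKM, a log2 change of -3.25 ± 0.35 (SE, adjusted p = 1.41e-06). Chosen after their values were seen, 2 more XTHs and an expansin stood out for abundance. XTH 09l_1174 rose from 51.8, 51.02, 66.5 and 28.5 FPKM at 91 d to 594, 408 and 865 FPKM at 133 d (log2 change 3.62 ± 0.42 SE, adjusted p = 2.72e-06). XTH 19l_3389 rose from 120.5, 93.0, 64.9 and 91.3 FPKM to 473, 518 and 528 FPKM, a log2 change of 2.47 ± 0.23 (SE, adjusted p = 2.08e-07). Expansin-A8 (09l_85) rose from 19.4, 18.3, 56.8 and 22.2 FPKM at 91 d to 153, 188 and 289.5 FPKM at 133 d (log2 change 2.92 ± 0.73 SE, adjusted p = 0.00361). Replicate 3 of 91 d lay apart from the other 3 libraries for that expansin, still under the lowest library of 133 d.

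**Figure D3:**
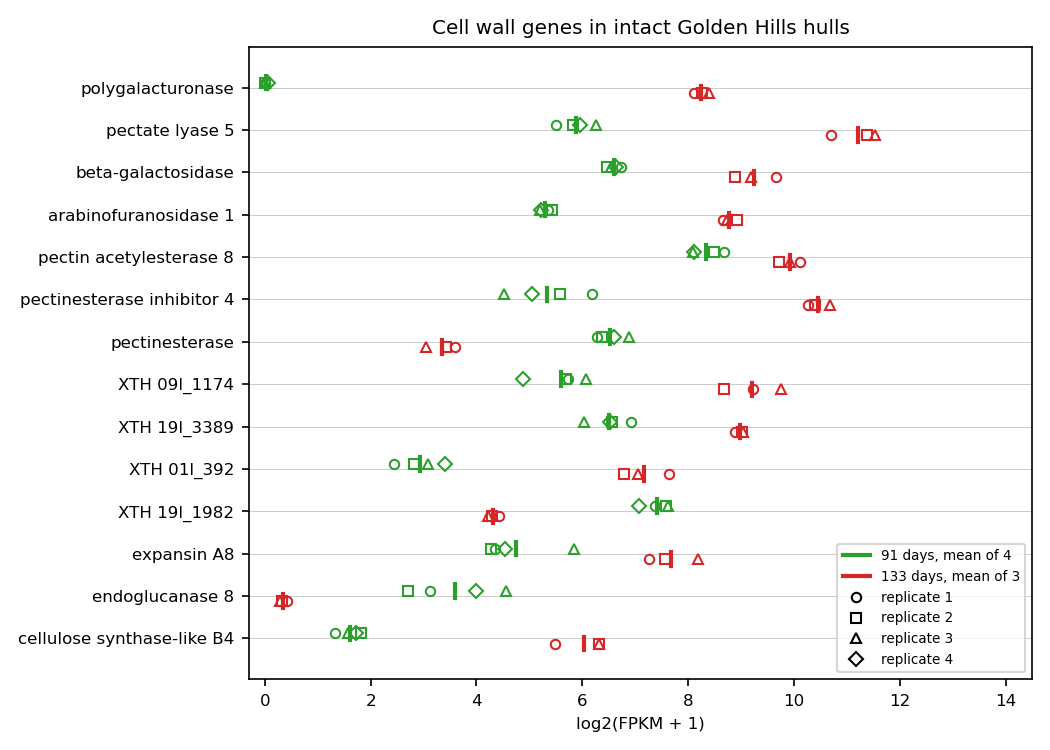
Expression of 14 cell wall genes as log2(FPKM + 1) on the horizontal axis, with 1 symbol per library and a bar at the mean of each age (XTH, xyloglucan endotransglucosylase). The 3 genes that fell, a pectinesterase, XTH 19l_1982 and endoglucanase 8, lie to the left at 133 d, and the other 11 to the right.

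Wall synthesis genes were divided. Of 46 genes for cellulose and callose synthesis 15 were higher and 11 lower, which became 12 and 13 with TPM. Cellulose synthase-like proteins had 8 of 17 higher and 2 lower, while cellulose synthase A subunits, which spin cellulose itself, had 1 of 9 higher and 4 lower, and callose synthases had 2 of 11 higher and 3 lower, a split made after values were seen. Cellulose synthase-like protein B4 (19l_1870) rose from 1.51, 2.51, 1.98 and 2.31 FPKM to 43.6, 78.6 and 78.6 FPKM, a log2 change of 4.43 ± 0.28 (SE, adjusted p = 4.96e-09). Cellulose synthase-like protein G3 (10l_175) rose from 9.77, 10.03, 4.43 and 9.54 FPKM at 91 d to 85.5, 89.6 and 108 FPKM at 133 d (log2 change 3.39 ± 0.30 SE, adjusted p = 1.31e-07). Cellulose synthase-like protein E1 (17l_2615) fell from 15.5, 13.5, 14.4 and 17.9 FPKM to 3.01, 4.01 and 4.76 FPKM, a log2 change of -1.74 ± 0.27 (SE, adjusted p = 6.57e-05). COBRA-like protein 2 (20l_2594), of a family that guides cellulose deposition, fell from 12.3, 11.2, 10.04 and 9.34 FPKM at 91 d to 5.30, 3.16 and 3.03 FPKM at 133 d (log2 change -1.30 ± 0.22 SE, adjusted p = 0.000113).

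Phenylpropanoid and monolignol enzymes, which make lignin and flavonoid precursors, had 11 of 68 higher and 21 lower, with a median log2 change of -0.11. Trans-cinnamate 4-monooxygenase (12l_154), an early step of the pathway, rose from 28.2, 21.0, 21.7 and 25.7 FPKM to 90.7, 111 and 148 FPKM, a log2 change of 2.21 ± 0.26 (SE, adjusted p = 3.06e-06). Caffeoylshikimate esterase (21l_898) rose from 21.4, 24.01, 23.9 and 22.1 FPKM at 91 d to 48.0, 70.2 and 72.0 FPKM at 133 d (log2 change 1.41 ± 0.17 SE, adjusted p = 3.57e-06). Cinnamyl alcohol dehydrogenase 9 (13l_541), of the family that makes the final lignin alcohols, fell from 30.1, 30.4, 40.2 and 40.7 FPKM to 10.99, 11.3 and 11.2 FPKM, a log2 change of -1.56 ± 0.17 (SE, adjusted p = 1.58e-06). Caffeic acid 3-O-methyltransferase (09l_2036) fell from 10.8, 11.1, 15.2 and 8.76 FPKM at 91 d to 1.93, 0.817 and 1.97 FPKM at 133 d (log2 change -2.29 ± 0.30 SE, adjusted p = 1.11e-05). The first pair rose and the last pair fell, each without overlap of the ages, as the naming rule required.

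Laccases, dirigent proteins and peroxidases, which couple such phenolics, had 12 of 50 higher and 14 lower, and with quantile normalization 15 and 13. Laccase-15 (01l_3654) had no read in any library of 91 d. Its libraries held 0 FPKM in all 4 libraries at 91 d and 30.7, 51.1 and 55.5 FPKM at 133 d. With the floor of 3 reads in each library its rise was at least 483-fold. The log2 change was 5.50 ± 0.71 (SE), with an adjusted p of 8.21e-06. Peroxidase 42 (17l_2267) fell from 52.8, 101, 175 and 103 FPKM at 91 d to 3.31, 1.33 and 2.87 FPKM at 133 d (log2 change -4.88 ± 0.43 SE, adjusted p = 1.18e-07). Cationic peroxidase 1 (09l_53) fell from 18.1, 24.8, 32.6 and 20.2 FPKM to 0.604, 0.397 and 0.410 FPKM, a log2 change of -4.05 ± 0.35 (SE, adjusted p = 1.07e-07). Flavonoid and anthocyanin enzymes had 7 of 58 higher and 16 lower, with a median log2 change of -0.25. Their chalcone synthases and isomerases had 0 of 16 higher and 4 lower, among them the chalcone synthase above. Chalcone isomerase-like protein 1 (19l_2732) fell from 29.0, 59.9, 81.2 and 65.3 FPKM at 91 d to 5.10, 2.69 and 2.74 FPKM at 133 d (log2 change -3.68 ± 0.43 SE, adjusted p = 2.78e-06). A malonyltransferase of anthocyanin glucosides (05l_210) rose from 7.91, 4.34, 7.70 and 9.91 FPKM to 249.8, 189 and 179.8 FPKM, a log2 change of 4.64 ± 0.47 (SE, adjusted p = 5.68e-07). Flavonoid glycosyltransferases, which also decorate the products, had 4 of 27 higher and 8 lower.

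Most photosystem genes fell. Among 38 tested photosystem and light-harvesting proteins 3 were higher and 24 lower, with a median log2 change of -0.59, and without replicates 2 and 3 of 91 d the counts were 1 and 22. Their share of transcripts went from 0.254% ± 0.0530 (SD, n = 4) to 0.136% ± 0.0119 (SD, n = 3). The falls were spread over both parts of the list, 8 of 15 light-harvesting proteins and 16 of 23 other photosystem proteins. Chlorophyll a-b binding protein 21 (17l_2157), an antenna protein, fell from 24.3, 18.3, 21.2 and 18.0 FPKM at 91 d to 2.16, 2.45 and 4.02 FPKM at 133 d (log2 change -2.49 ± 0.16 SE, adjusted p = 5.25e-09). The antenna protein CP29.1 (27l_295), chosen after its values were seen, fell from 209, 131, 88.4 and 101 FPKM to 36.7, 30.2 and 46.8 FPKM, a log2 change of -1.72 ± 0.30 (SE, adjusted p = 0.0002). Photosystem I subunit N (13l_725) fell from 4.74, 4.31, 7.04 and 4.13 FPKM at 91 d to 0.893, 0.399 and 0.329 FPKM at 133 d (log2 change -1.97 ± 0.25 SE, adjusted p = 8.26e-06). The 3 members that rose were antenna proteins. Photosystem I chlorophyll a/b-binding protein 5 (01l_2700) rose from 6.81, 4.06, 3.21 and 3.55 FPKM to 11.01, 8.55 and 11.4 FPKM, a log2 change of 1.10 ± 0.23 (SE, adjusted p = 0.000988). Chlorophyll a-b binding protein 7 (01l_2367) and CP26 (01l_4564), chosen after their values were seen, were the others. The former rose from 13.7, 10.97, 8.40 and 9.70 FPKM at 91 d to 18.9, 15.3 and 14.9 FPKM at 133 d (log2 change 0.58 ± 0.17 SE, adjusted p = 0.0082). CP26 rose from 20.2, 23.6, 23.4 and 25.7 FPKM to 51.3, 36.6 and 36.7 FPKM, a log2 change of 0.80 ± 0.26 (SE, adjusted p = 0.0173). Neither was called without replicates 2 and 3 of 91 d (adjusted p = 0.0804 and 0.0646), and CP26 was not called with TPM (adjusted p = 0.0554) or without replicate 1 of 133 d (adjusted p = 0.085). Calvin cycle enzymes, which fix carbon, had 0 of 10 higher and 4 lower, but their median log2 change was -0.04, close to that of all genes. Phosphoribulokinase (19l_3415) fell from 37.9, 43.7, 35.7 and 18.7 FPKM at 91 d to 14.3, 13.0 and 11.9 FPKM at 133 d (log2 change -1.26 ± 0.24 SE, adjusted p = 0.000436).

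Chlorophyll synthesis genes had 3 of 16 higher and 5 lower, and chlorophyll breakdown genes 5 of 13 higher and 2 lower, with medians of -0.10 and 0.02, the latter -0.13 with TPM. Without replicate 2 of 133 d 2 synthesis genes were lower. Pheophytinase (05l_93), which cuts the phytol tail from magnesium-free chlorophyll, rose from 10.8, 8.76, 9.93 and 13.9 FPKM to 37.6, 45.9 and 46.6 FPKM, a log2 change of 1.92 ± 0.29 (SE, adjusted p = 3.77e-05). The STAY-GREEN homolog (10l_1158), which removes the magnesium and was chosen after its values were seen, rose from 36.8, 22.6, 16.5 and 27.4 FPKM at 91 d to 55.8, 83.5 and 90.3 FPKM at 133 d (log2 change 1.56 ± 0.28 SE, adjusted p = 0.000202). Chlorophyllase-1 (19l_3143), once held to start chlorophyll breakdown, fell from 50.8, 87.9, 68.0 and 62.5 FPKM to 27.7, 9.77 and 9.07 FPKM, a log2 change of -2.20 ± 0.41 (SE, adjusted p = 0.000333). Among synthesis genes, chlorophyllide a oxygenase (01l_3269), which makes chlorophyll b, rose from 11.3, 10.4, 11.8 and 10.8 FPKM at 91 d to 21.6, 35.9 and 38.3 FPKM at 133 d (log2 change 1.41 ± 0.26 SE, adjusted p = 0.000259). Geranylgeranyl diphosphate reductase (02l_968), which makes the phytol tail, fell from 83.0, 87.6, 93.4 and 76.9 FPKM to 20.3, 55.97 and 36.1 FPKM, a log2 change of -1.27 ± 0.25 (SE, adjusted p = 0.000522). The 2 named breakdown genes that rose did so without overlap of the ages, which the naming rule required of pheophytinase.

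Carotenoid enzymes had 7 of 24 higher and 8 lower, 9 and 6 with quantile normalization, and 5 lower without replicate 3 of 133 d. Phytoene synthase (08l_386), the entry enzyme of carotenoid synthesis, was nearly silent at 91 d. It had 0.512, 0.402, 0.382 and 0.508 FPKM at 91 d, and 31.0, 26.3 and 35.9 FPKM at 133 d. On the log2 scale this was 4.46 ± 0.24 (SE, adjusted p = 9.82e-10). Beta-carotene hydroxylase 2 (04l_577), which makes xanthophylls and was chosen after its values were seen, rose from 195, 90.1, 69.5 and 116 FPKM to 281, 341 and 394 FPKM, a log2 change of 1.61 ± 0.30 (SE, adjusted p = 0.000269). Zeaxanthin epoxidase (13l_1574), the step that follows, fell from 45.7, 38.9, 36.5 and 41.0 FPKM at 91 d to 17.9, 18.8 and 20.2 FPKM at 133 d (log2 change -1.05 ± 0.15 SE, adjusted p = 1.78e-05). A carotenoid cleavage dioxygenase (05l_184), which breaks carotenoids into volatiles, fell from 41.4, 47.2, 64.6 and 65.3 FPKM to 29.998, 18.8 and 22.3 FPKM, a log2 change of -1.17 ± 0.20 (SE, adjusted p = 0.000137).

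Fatty acid synthesis, the plastid pathway that makes the acyl chains of membranes, cuticle and oils, had the largest share of higher calls of any list. Of 31 members tested 18 were higher and 5 lower, with a median log2 change of 0.62, and without replicates 2 and 3 of 91 d the counts were 17 and 4. Their share of transcripts went from 0.1593% ± 0.0269 (SD, n = 4) to 0.339% ± 0.0113 (SD, n = 3). WRI1 (09l_982), a transcription factor that in Arabidopsis seeds turns on this pathway, rose from 0.172, 0.120, 0 and 0 FPKM at 91 d to 19.1, 21.3 and 28.7 FPKM at 133 d (log2 change 4.47 ± 0.54 SE, adjusted p = 4.15e-06). Acyl carrier protein 4 (22l_1803), which holds the growing chain, rose from 175, 212, 260.1 and 183 FPKM to 873, 887 and 819 FPKM, a log2 change of 2.06 ± 0.34 (SE, adjusted p = 9.98e-05). Biotin carboxylase 1 (01l_712), a subunit of the enzyme that starts the pathway, rose from 21.3, 20.7, 25.1 and 16.6 FPKM at 91 d to 90.2, 98.5 and 97.8 FPKM at 133 d (log2 change 2.15 ± 0.33 SE, adjusted p = 4.78e-05).

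Several enzymes of the elongation cycle rose as well. Enoyl-ACP reductase (11l_676) rose from 7.91, 11.3, 14.7 and 6.89 FPKM to 64.1, 64.0 and 61.5 FPKM, a log2 change of 2.57 ± 0.58 (SE, adjusted p = 0.00163). Hydroxyacyl-ACP dehydratase (20l_435) rose from 15.95, 15.8, 19.0 and 12.8 FPKM at 91 d to 82.0, 71.7 and 68.3 FPKM at 133 d (log2 change 2.16 ± 0.34 SE, adjusted p = 6.45e-05). The carrier protein and the last 3 enzymes were picked with their values known. Not every early member rose, as genes also chosen after their values were seen show. Carboxyl transferase subunit alpha 19l_373, of the enzyme that starts the pathway, was lower, with a log2 change of -1.49. Another gene of that name (27l_359) was higher, at 1.29. A 3-oxoacyl-ACP synthase I of the elongation cycle (10l_177) was not called, at -0.44. The members named by rule, as the largest rises and the largest fall, were at the end of the pathway. Palmitoyl-ACP thioesterase 24l_1644, which releases finished chains, rose from 0.652, 0.554, 0.0810 and 0.176 FPKM to 12.4, 12.9 and 13.1 FPKM, a log2 change of 3.36 ± 0.44 (SE, adjusted p = 8.77e-06). Its relative 21l_832 fell from 25.4, 40.4, 57.5 and 19.2 FPKM at 91 d to 0.166, 0.156 and 0.0643 FPKM at 133 d (log2 change -4.90 ± 0.43 SE, adjusted p = 1.16e-07). Stearoyl-ACP desaturase 22l_323, which makes oleic acid chains, had no read in any library of 91 d. At 91 d it stood at 0 FPKM in all 4 libraries, and at 133 d at 3.76, 12.5 and 6.44 FPKM. The floor of 3 reads gave a rise of at least 51.4-fold. This was a log2 change of 2.97 ± 0.22 (SE, adjusted p = 2.16e-08). Near copies of this gene lie beside it, and reads may be divided among them. Of these, both chosen after their values were seen, 22l_328 fell from a mean of 9.76 FPKM to 0.0305 FPKM (log2 change -3.25, adjusted p = 0.0001). Gene 22l_322 was not called, at 0.33. Lost Hills also had more higher than lower calls in this list, 14 and 4 of 31. Over all 19716 genes tested, 3159 were higher and 3090 lower in Lost Hills.

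**Figure D4:**
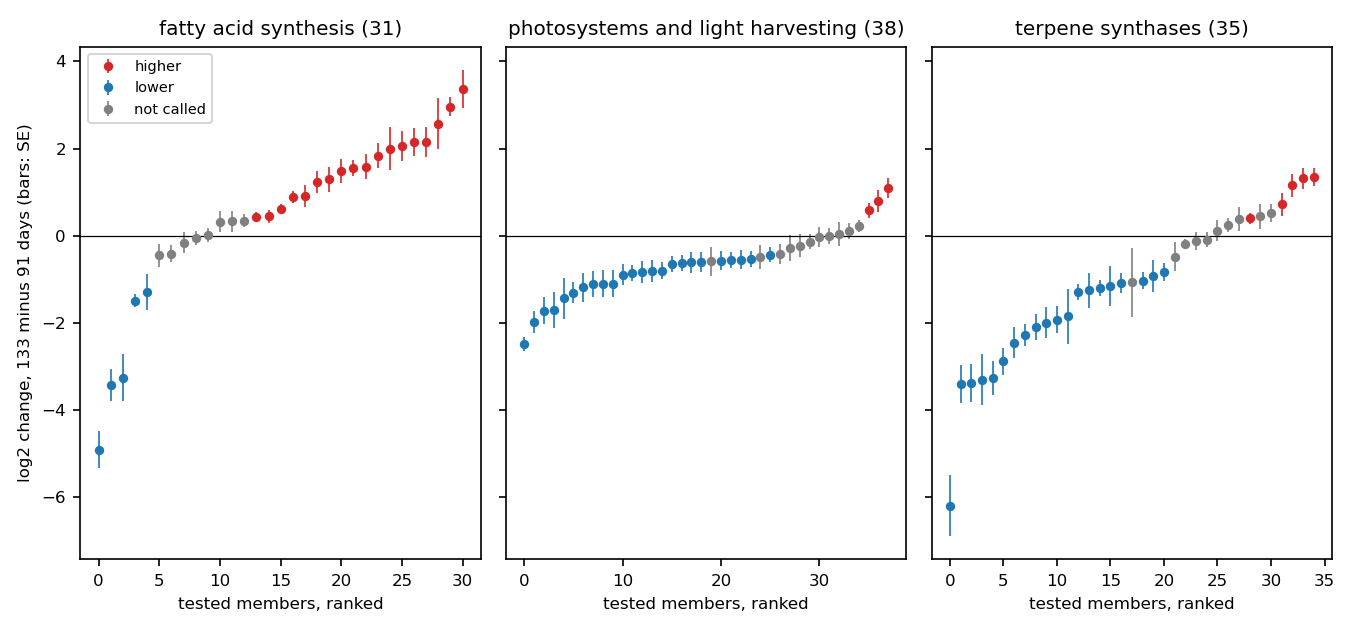
Log2 change from 91 d to 133 d (vertical axis, bars SE) of each tested member of 3 lists, ranked by change. Fatty acid synthesis has 18 members called higher, while photosystems have 24 and terpene synthases 20 called lower.

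Cutin and wax genes, which build the surface layer, had 12 of 41 higher and 13 lower, and 9 and 16 with TPM. Glycerol-3-phosphate acyltransferase 1 (19l_1319) rose from 1.59, 1.75, 2.60 and 4.23 FPKM at 91 d to 26.4, 29.5 and 45.2 FPKM at 133 d (log2 change 3.31 ± 0.38 SE, adjusted p = 2.35e-06). CER3 (01l_292), of wax alkane synthesis and chosen after its values were seen, rose from 8.71, 10.2, 16.7 and 21.6 FPKM to 103, 117 and 142 FPKM, a log2 change of 3.06 ± 0.24 (SE, adjusted p = 5.12e-08). 3-ketoacyl-CoA synthase 1 (19l_614), which lengthens chains for wax, rose from 0.119, 0.0747, 0.142 and 0.206 FPKM at 91 d to 5.74, 9.73 and 11.9 FPKM at 133 d (log2 change 3.11 ± 0.46 SE, adjusted p = 3.49e-05). Very-long-chain 3-oxoacyl-CoA reductase 1 (24l_148), the next step of that elongation, fell from 74.7, 126, 169 and 114 FPKM to 5.88, 3.04 and 2.07 FPKM, a log2 change of -4.74 ± 0.64 (SE, adjusted p = 1.39e-05). Fatty acyl-CoA reductase 2 (22l_773) had no read at 133 d. Its libraries held 2.33, 6.01, 10.1 and 7.11 FPKM at 91 d and 0 FPKM in all 3 libraries at 133 d. With the floor of 3 reads its fall was at least 73.9-fold. The log2 change was -2.76 ± 0.30 (SE), with an adjusted p of 1.26e-06.

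Terpene synthases, which make the volatile and resinous terpenes for which pistachio is known, fell in most cases. Of 35 tested 5 were higher (3 with TPM) and 20 lower, with a median log2 change of -1.06, and their share of transcripts went from 0.152% ± 0.0524 (SD, n = 4) to 0.0281% ± 0.00434 (SD, n = 3). Of the mono- and sesquiterpene synthases 2 of 22 were higher and 16 lower. The triterpene and sterol cyclases had 3 of 13 higher and 4 lower, a split made after values were seen. Limonene synthase 17l_785 fell from 119, 203, 306 and 103 FPKM to 2.77, 0.948 and 0.643 FPKM, a log2 change of -6.19 ± 0.69 (SE, adjusted p = 1.80e-06). Its relative 17l_921, chosen after its values were seen, fell from 168, 252, 371 and 315 FPKM at 91 d to 40.03, 30.6 and 35.4 FPKM at 133 d (log2 change -2.88 ± 0.31 SE, adjusted p = 1.06e-06). Beta-amyrin synthase (12l_61), which makes a triterpene skeleton, fell from 77.99, 96.1, 112 and 92.5 FPKM to 10.7, 7.50 and 6.35 FPKM, a log2 change of -3.39 ± 0.43 (SE, adjusted p = 6.95e-06). Nerolidol synthase 1 (17l_1352), chosen after its values were seen, fell from 5.06, 6.62, 42.9 and 69.9 FPKM at 91 d to 0.0639, 0.0900 and 0 FPKM at 133 d (log2 change -4.21 ± 0.64 SE, adjusted p = 4.58e-05). Its libraries of 91 d spread widely. Alpha-farnesene synthase (17l_1340) was the riser named. It rose from 2.82, 4.77, 3.51 and 3.32 FPKM to 16.5, 8.30 and 7.97 FPKM, a log2 change of 1.32 ± 0.25 (SE, adjusted p = 0.000303).

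Ethylene synthesis and signalling genes changed differently in the 2 cultivars. In Golden Hills 8 of 24 were higher and 2 lower, and with TPM 7 and 7. In intact Lost Hills hulls, which were compared between the same ages (n = 4 and 3), 2 were higher and 9 lower, where 31.7% of all genes were called and 15.7% were lower. The difference between the 2 age changes, tested as an interaction, was called for 8 of the 24, against 3.29% of all genes. All 8 were positive, meaning a higher log2 change in Golden Hills, though not always one larger in size. That count was 6 with TPM, 8 without replicate 2 of both 91 d groups and 6 without replicates 2 and 3 of Golden Hills.

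Ethylene receptors, which repress the pathway until they bind the hormone, were among these genes. Ethylene receptor 2 (22l_2191) rose from 59.7, 59.7, 41.1 and 46.8 FPKM at 91 d to 123, 153 and 131 FPKM at 133 d (log2 change 1.38 ± 0.21 SE, adjusted p = 5.56e-05). Its Lost Hills libraries held 78.7, 76.7, 103 and 84.4 FPKM at 91 d and 52.2, 26.4 and 54.5 FPKM at 133 d, a log2 change of -0.99 ± 0.21 (SE, adjusted p = 0.00196). The interaction was 2.37 ± 0.30 (SE, adjusted p = 0.00028). Ethylene response sensor 1 (19l_868) rose from 79.3, 99.2, 84.1 and 83.1 FPKM to 141, 138 and 146 FPKM, a log2 change of 0.71 ± 0.14 (SE, adjusted p = 0.000481). In Lost Hills it had 111, 111, 145 and 130.5 FPKM at 91 d and 94.5, 59.1 and 92.7 FPKM at 133 d (log2 change -0.61 ± 0.14 SE, adjusted p = 0.00286). The change differed between cultivars by 1.33 ± 0.20 (SE, adjusted p = 0.00124). The Golden Hills libraries of 133 d were the highest of all 14 for ethylene receptor 2. A further ethylene receptor (09l_1797), chosen after its values were seen, was not called in Golden Hills (log2 change 0.13, adjusted p = 0.356). It was lower in Lost Hills (log2 change -0.51, adjusted p = 0.0022), and its interaction was 0.64 (adjusted p = 0.033).

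EIN3-binding F-box proteins, which mark the pathway's transcription factors for destruction, rose in Golden Hills and fell in Lost Hills in 2 cases. EBF2 01l_1535 rose from 36.7, 35.8, 32.8 and 28.6 FPKM at 91 d to 108, 90.8 and 66.8 FPKM at 133 d (log2 change 1.36 ± 0.32 SE, adjusted p = 0.002). Lost Hills had 80.0, 57.5, 79.6 and 59.4 FPKM at 91 d and 27.8, 23.95 and 49.8 FPKM at 133 d, a log2 change of -1.06 ± 0.32 (SE, adjusted p = 0.016). Golden Hills minus Lost Hills, the log2 changes differed by 2.42 ± 0.45 (SE, adjusted p = 0.00655). EBF2 01l_2106 rose from 99.1, 101, 111 and 86.4 FPKM to 231, 196 and 135 FPKM, a log2 change of 0.88 ± 0.25 (SE, adjusted p = 0.00733). Its Lost Hills libraries held 144, 153, 155 and 184 FPKM at 91 d and 88.6, 66.7 and 106 FPKM at 133 d, a log2 change of -0.88 ± 0.25 (SE, adjusted p = 0.0112). The interaction was 1.76 ± 0.35 (SE, adjusted p = 0.00982). REVERSION-TO-ETHYLENE SENSITIVITY1 (01l_1590), which keeps a receptor active in Arabidopsis, rose from 81.4, 54.0, 45.4 and 48.5 FPKM at 91 d to 134, 150.3 and 129 FPKM at 133 d (log2 change 1.29 ± 0.27 SE, adjusted p = 0.000806). The change differed between cultivars by 1.83 ± 0.38 (SE, adjusted p = 0.0132). The sensor, the second EBF2 and the latter gene were picked with their values known. For the latter gene the interaction was 1.66 (adjusted p = 0.062) without replicates 2 and 3 of Golden Hills.

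Steps between the receptors and the transcription factors, also picked with their values known, included 2 further called interactions. Other tested genes carry the same 2 names, ETHYLENE INSENSITIVE 2 and CTR1, and none of those had a called interaction. The other ETHYLENE INSENSITIVE 2 gene (27l_766) was not called in Golden Hills, at -0.20 (adjusted p = 0.143). Of the other CTR1 genes only 32l_27 was called there, at 0.58. ETHYLENE INSENSITIVE 2 (03l_1383), which carries the signal to the nucleus, rose from 0.639, 0.446, 0.423 and 0.692 FPKM to 3.03, 5.81 and 3.95 FPKM, a log2 change of 1.73 ± 0.21 (SE, adjusted p = 3.71e-06). In Lost Hills it had 0.119, 0.209, 0.458 and 0.445 FPKM at 91 d and 0.777, 0.471 and 0.796 FPKM at 133 d (log2 change 0.37 ± 0.21 SE, adjusted p = 0.192). Golden Hills minus Lost Hills, the log2 changes differed by 1.37 ± 0.29 (SE, adjusted p = 0.0162). Its interaction lost its call with a pseudocount of 0.1 (adjusted p = 0.0925), with limma's voom on reads recovered from the FPKM (adjusted p = 0.226) and without replicates 2 and 3 of Golden Hills (adjusted p = 0.0726). The kinase CTR1 (09l_806), which blocks the pathway while ethylene is absent, rose from 126, 149, 121 and 116 FPKM at 91 d to 170.1, 148 and 161 FPKM at 133 d (log2 change 0.32 ± 0.11 SE, adjusted p = 0.0268). Lost Hills had 153, 158, 145 and 180.2 FPKM at 91 d and 126, 114 and 140.4 FPKM at 133 d, a log2 change of -0.33 ± 0.11 (SE, adjusted p = 0.0328). The interaction was 0.64 ± 0.16 (SE, adjusted p = 0.0312). Its Golden Hills ages overlapped. With TPM its change was 0.14 (adjusted p = 0.315) and its interaction 0.51 (adjusted p = 0.0893), and leaving out any one of 8 single libraries also ended the call of the interaction, at adjusted p-values of 0.0501 to 0.0689. Without replicate 1, the rise of CTR1 at 133 d in Golden Hills had an adjusted p of 0.0898, and without replicate 3 of 133 d or replicates 3 or 4 of 91 d it was 0.0682, 0.0642 and 0.0745.

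The transcription factor ETHYLENE INSENSITIVE 3 (09l_986), chosen after its values were seen, fell from 124, 123, 126 and 150.1 FPKM to 66.6, 75.7 and 82.8 FPKM, a log2 change of -0.79 ± 0.12 (SE, adjusted p = 4.25e-05). Its log2 change in Lost Hills was -0.82 (adjusted p = 6.95e-05). Another gene named ETHYLENE INSENSITIVE 3 (08l_97) was not called in Golden Hills, at -0.26 (adjusted p = 0.16). An ACC synthase (10l_334), of the family that makes the ethylene precursor, fell from 7.37, 5.99, 6.80 and 8.92 FPKM at 91 d to 0.538, 0.758 and 0.492 FPKM at 133 d (log2 change -2.37 ± 0.36 SE, adjusted p = 4.29e-05). Of 7 tested genes of ethylene synthesis 0 were higher and 1 was lower in Golden Hills.

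**Figure D5:**
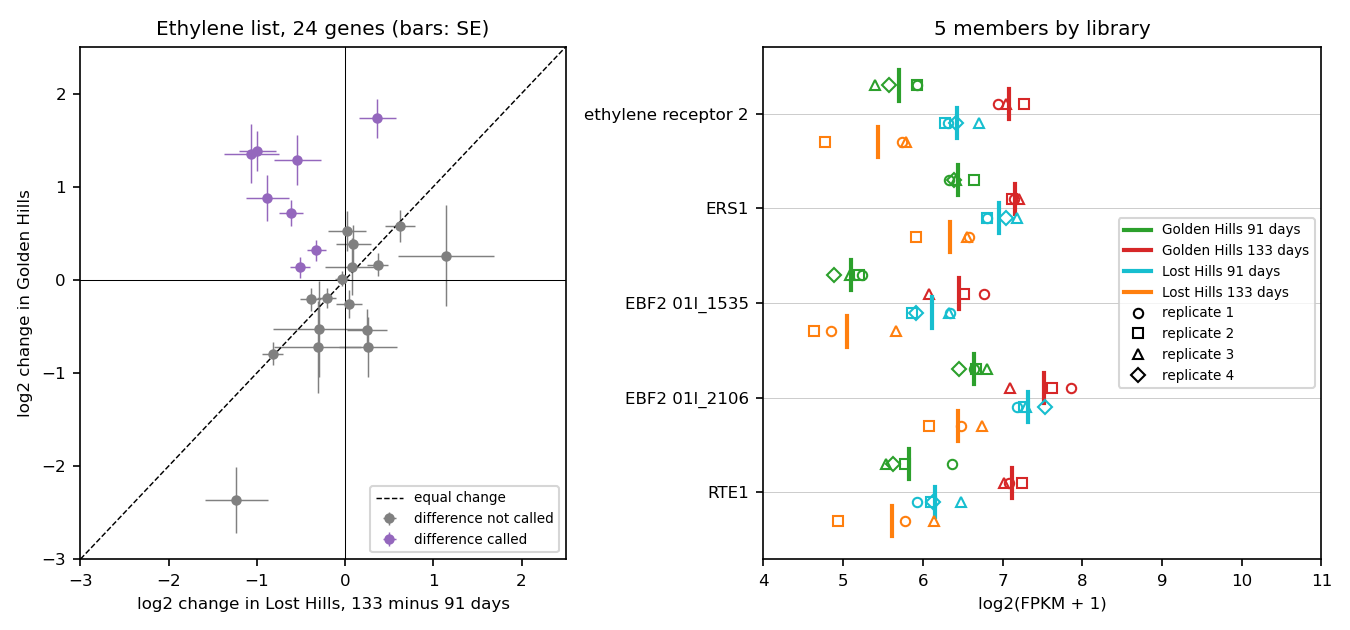
Left, log2 change from 91 d to 133 d of the 24 tested ethylene genes in Golden Hills (vertical) against Lost Hills (horizontal), bars SE, coloured where the difference between cultivars was called. Right, log2(FPKM + 1) of 5 members by library with bars at group means (ERS1, ethylene response sensor 1; EBF2, EIN3-binding F-box protein 2; RTE1, REVERSION-TO-ETHYLENE SENSITIVITY1). The 8 called members lie above the diagonal, and for the 5 members the mean is higher at 133 d in Golden Hills and lower in Lost Hills.

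Ethylene-responsive transcription factors, a large family only part of which answers to ethylene, had 13 of 57 higher and 9 lower, and 11 and 17 with TPM. Without replicate 4 of 91 d or replicate 1 of 133 d 5 were lower. ERF106 (04l_956) rose from 28.9, 43.8, 21.9 and 18.0 FPKM to 457, 801 and 858 FPKM, a log2 change of 4.62 ± 0.39 (SE, adjusted p = 8.50e-08). The change differed between cultivars by 2.37 ± 0.55 (SE, adjusted p = 0.0239). That difference was not called without replicate 2 or 3 of Golden Hills at 133 d or replicate 3 of Lost Hills at 91 d (adjusted p = 0.0628, 0.0591 and 0.0524). ERF12 (17l_1777) fell from 22.7, 15.4, 13.9 and 17.5 FPKM at 91 d to 3.04, 2.33 and 2.21 FPKM at 133 d (log2 change -2.37 ± 0.27 SE, adjusted p = 1.90e-06). ERF4 (17l_1780) fell from 73.2, 60.6, 48.4 and 108 FPKM to 27.05, 38.3 and 30.1 FPKM, a log2 change of -1.12 ± 0.37 (SE, adjusted p = 0.0206). Without replicate 4 of 91 d the fall of ERF4 was -0.91 (adjusted p = 0.0661). Without replicate 1 or 3 of 133 d its adjusted p was 0.0696 and 0.0572.

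Abscisic acid and dehydration genes had 10 of 35 higher and 7 lower, and 9 and 9 with TPM. NCED2 (17l_2252), of the rate-limiting enzymes of abscisic acid synthesis, rose from 1.35, 1.34, 2.70 and 2.87 FPKM at 91 d to 4.48, 12.7 and 10.4 FPKM at 133 d (log2 change 1.67 ± 0.36 SE, adjusted p = 0.00106). The late embryogenesis abundant protein Lea5 (22l_2327), of a family that protects drying tissue, rose from 146, 83.6, 71.0 and 137 FPKM to 554, 420.5 and 362 FPKM, a log2 change of 2.06 ± 0.34 (SE, adjusted p = 0.000107). Protein phosphatase 2C 3 (16l_982), of the family that damps abscisic acid signalling and chosen after its values were seen, rose from 33.1, 12.3, 14.8 and 35.7 FPKM at 91 d to 70.1, 63.6 and 48.9 FPKM at 133 d (log2 change 1.43 ± 0.42 SE, adjusted p = 0.00991). Without replicates 2 and 3 of 91 d that rise was 0.79 (adjusted p = 0.184). ABSCISIC ACID-INSENSITIVE 5-like protein 7 (20l_2222), a transcription factor, fell from 45.9, 36.9, 33.9 and 44.6 FPKM to 15.6, 19.6 and 18.5 FPKM, a log2 change of -1.12 ± 0.13 (SE, adjusted p = 2.58e-06).

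Auxin genes had 19 of 72 higher and 28 lower, with a median log2 change of -0.23. Aux/IAA repressors had 3 of 18 higher and 10 lower, and auxin response factors 4 of 17 higher and 9 lower. AUX28 (07l_903), an Aux/IAA repressor, fell from 177, 156, 135 and 118 FPKM at 91 d to 3.25, 10.3 and 11.1 FPKM at 133 d (log2 change -4.13 ± 0.32 SE, adjusted p = 3.33e-08). Its neighbour 22D (07l_904) fell from 15.0, 14.6, 18.0 and 13.7 FPKM to 0.466, 1.41 and 1.10 FPKM, a log2 change of -3.06 ± 0.25 (SE, adjusted p = 7.36e-08). Another gene named 22D (19l_3097) rose from 7.02, 7.21, 4.43 and 5.92 FPKM at 91 d to 31.8, 58.1 and 66.4 FPKM at 133 d (log2 change 2.85 ± 0.31 SE, adjusted p = 1.19e-06). IAA17 (01l_1432) rose from 7.04, 11.4, 5.58 and 4.28 FPKM to 46.1, 80.2 and 94.8 FPKM, a log2 change of 3.22 ± 0.31 (SE, adjusted p = 3.68e-07). Auxin response factor 2A (19l_1174), a transcription factor chosen after its values were seen, fell from 106, 111, 132 and 167 FPKM at 91 d to 32.5, 32.6 and 28.3 FPKM at 133 d (log2 change -1.99 ± 0.16 SE, adjusted p = 6.48e-08). The rises and falls named by rule were repressors of the same family. Their opposite directions and lack of overlap followed from that rule.

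Gibberellin genes had 8 of 27 higher and 4 lower, 8 and 7 with TPM, with a median log2 change of 0.27. Beside Gibberellin-regulated protein 1, Snakin-1 (01l_2802), an antimicrobial member of the same family, rose from 14.1, 11.5, 13.4 and 7.22 FPKM to 916, 659 and 677 FPKM, a log2 change of 5.92 ± 0.69 (SE, adjusted p = 2.61e-06). Gibberellin 2-beta-dioxygenase 1 (09l_1807), which inactivates the hormone, fell from 123, 57.2, 66.5 and 117 FPKM at 91 d to 26.1, 19.3 and 55.0 FPKM at 133 d (log2 change -1.48 ± 0.45 SE, adjusted p = 0.0125). Without replicate 2 of 133 d that fall was -1.16 (adjusted p = 0.0743). Jasmonate and lipoxygenase genes had 6 of 45 higher and 10 lower, with a median log2 change of -0.18. Lipoxygenase 6 (24l_86) fell from 42.3, 50.4, 53.9 and 68.7 FPKM to 19.9, 20.5 and 17.2 FPKM, a log2 change of -1.42 ± 0.14 (SE, adjusted p = 5.85e-07). A jasmonic acid carboxyl methyltransferase (19l_1713), which makes the volatile methyl ester, rose from 2.28, 0.711, 0.860 and 0.869 FPKM at 91 d to 9.70, 8.39 and 10.9 FPKM at 133 d (log2 change 2.34 ± 0.27 SE, adjusted p = 3.00e-06).

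Transcription factor families differed in balance. NAC factors, of which some drive senescence and ripening, had 22 of 49 higher and 9 lower, with a median log2 change of 0.36, and without replicates 2 and 3 of 91 d 15 and 8. NAC 21/22 (19l_1589) rose from 0, 0.121, 0.269 and 0.126 FPKM to 24.3, 28.6 and 29.5 FPKM, a log2 change of 4.65 ± 0.40 (SE, adjusted p = 1.16e-07). A further gene of that name (09l_1762) rose from 1.62, 1.59, 0.573 and 0.114 FPKM at 91 d to 37.7, 37.5 and 39.4 FPKM at 133 d (log2 change 4.40 ± 0.26 SE, adjusted p = 2.53e-09). NAC 104 (13l_759) fell from 20.6, 19.9, 13.3 and 18.4 FPKM to 8.46, 6.82 and 9.56 FPKM, a log2 change of -1.03 ± 0.28 (SE, adjusted p = 0.00638). NAC 75 (01l_1256) fell from 3.80, 6.99, 5.59 and 5.28 FPKM at 91 d to 2.80, 2.43 and 2.81 FPKM at 133 d (log2 change -0.78 ± 0.20 SE, adjusted p = 0.00419). Leaving out replicates 2 and 3 of 91 d, the fall of NAC 75 was -0.58 (adjusted p = 0.0682).

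MADS-box factors, which specify floral and fruit organs, had 4 of 25 higher and 10 lower, with a median log2 change of -0.40. AGL11 (01l_4021), a relative of seed and ovule identity factors, rose from 0.105, 0, 0.208 and 0.170 FPKM to 2.85, 8.74 and 9.58 FPKM, a log2 change of 2.72 ± 0.35 (SE, adjusted p = 8.52e-06). MADS2 (24l_308) fell from 17.1, 11.3, 14.3 and 12.8 FPKM at 91 d to 1.45, 2.33 and 2.10 FPKM at 133 d (log2 change -2.33 ± 0.27 SE, adjusted p = 2.40e-06). EJ2 (24l_20), named for a tomato inflorescence gene, fell from 18.7, 15.99, 16.5 and 16.7 FPKM to 4.55, 4.47 and 4.96 FPKM, a log2 change of -1.67 ± 0.12 (SE, adjusted p = 2.16e-08). MYB factors had 18 of 75 higher and 23 lower. MYB78 (19l_758) rose from 2.18, 0.825, 1.09 and 2.17 FPKM at 91 d to 56.4, 66.0 and 68.3 FPKM at 133 d (log2 change 4.69 ± 0.33 SE, adjusted p = 1.50e-08). EOBII (19l_2659), a regulator of petunia flower scent, rose from 0.186, 0, 0 and 0 FPKM to 7.92, 3.13 and 5.56 FPKM, a log2 change of 2.58 ± 0.45 (SE, adjusted p = 0.000173). MYB82 (01l_1561) fell from 7.70, 7.09, 8.39 and 15.1 FPKM at 91 d to 0.121, 0.285 and 0.353 FPKM at 133 d (log2 change -3.02 ± 0.25 SE, adjusted p = 8.59e-08). PHL5 (11l_687) fell from 8.92, 12.6, 4.64 and 5.24 FPKM to 0.832, 0.0521 and 0.269 FPKM, a log2 change of -2.62 ± 0.33 (SE, adjusted p = 5.48e-06).

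WRKY factors, best known from stress and senescence, had 12 of 51 higher and 15 lower. WRKY75 (19l_1119), which promotes leaf senescence in Arabidopsis, rose from 2.73, 1.84, 0.872 and 1.27 FPKM at 91 d to 9.53, 23.4 and 29.0 FPKM at 133 d (log2 change 2.93 ± 0.42 SE, adjusted p = 2.49e-05). WRKY65 (17l_1948) rose from 6.29, 4.79, 4.11 and 9.19 FPKM to 51.4, 49.7 and 55.1 FPKM, a log2 change of 2.95 ± 0.25 (SE, adjusted p = 1.07e-07). WRKY70 (09l_29), a defence and senescence regulator in Arabidopsis, fell from 43.4, 42.0, 20.4 and 19.5 FPKM at 91 d to 2.36, 2.72 and 1.98 FPKM at 133 d (log2 change -3.18 ± 0.63 SE, adjusted p = 0.00053). WRKY21 (19l_3079) fell from 25.9, 29.9, 35.6 and 34.5 FPKM to 9.23, 11.2 and 10.1 FPKM, a log2 change of -1.53 ± 0.12 (SE, adjusted p = 3.79e-08). Senescence-linked and other proteases had 33 of 97 higher and 27 lower, and 29 and 33 with TPM. SAG39 (17l_1879), a senescence-specific cysteine protease, rose from 2.09, 8.22, 3.64 and 2.14 FPKM at 91 d to 114, 236 and 118 FPKM at 133 d (log2 change 5.04 ± 0.80 SE, adjusted p = 7.10e-05). Aspartic proteinase GIP2 (19l_3237) rose from 0.319, 0.334, 0.119 and 0.475 FPKM to 27.8, 16.6 and 32.5 FPKM, a log2 change of 4.30 ± 0.25 (SE, adjusted p = 2.06e-09). The subtilisin-like protease SBT3 (01l_2724) fell from 18.6, 27.7, 33.8 and 30.5 FPKM at 91 d to 0.849, 0.870 and 0.573 FPKM at 133 d (log2 change -4.00 ± 0.25 SE, adjusted p = 3.50e-09). Aspartic proteinase nepenthesin-2 (01l_1960) fell from 3.40, 5.31, 8.11 and 8.46 FPKM to 0, 0.0366 and 0 FPKM, a log2 change of -2.79 ± 0.21 (SE, adjusted p = 2.16e-08).

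Sugar and starch genes had 33 of 117 higher and 25 lower, and 24 and 34 with TPM. The soluble invertase beta-fructofuranosidase I (04l_880), which splits sucrose in the vacuole, was close to silent at 91 d. It had 0.140, 0.312, 0.524 and 0.665 FPKM at 91 d, and 228, 210.3 and 227 FPKM at 133 d. On the log2 scale this was 7.32 ± 0.48 (SE, adjusted p = 6.03e-09). Alpha-amylase (01l_2703), which breaks starch, rose from 34.0, 28.0, 23.4 and 34.0 FPKM to 231, 291.9 and 247 FPKM, a log2 change of 3.07 ± 0.31 (SE, adjusted p = 6.91e-07). Inactive beta-amylase 9 (22l_1796) fell from 859, 441, 412 and 451 FPKM at 91 d to 124, 73.0 and 72.9 FPKM at 133 d (log2 change -2.55 ± 0.25 SE, adjusted p = 4.41e-07). Sugar transport protein 1 (17l_1441) fell from 31.8, 30.3, 21.0 and 14.2 FPKM to 6.76, 3.13 and 3.45 FPKM, a log2 change of -2.21 ± 0.34 (SE, adjusted p = 4.46e-05). Aquaporins, the water channels, had 4 of 23 higher and 10 lower, with a median log2 change of -0.39. The tonoplast channel TIP4-1 (01l_1692) fell from 127, 119, 139.9 and 143 FPKM at 91 d to 9.35, 6.43 and 7.88 FPKM at 133 d (log2 change -3.92 ± 0.35 SE, adjusted p = 1.68e-07). TIP1-3 (09l_494) fell from 56.4, 16.9, 107 and 189.8 FPKM to 5.30, 14.3 and 12.2 FPKM, a log2 change of -2.64 ± 0.90 (SE, adjusted p = 0.0227). Its libraries of 91 d were widely spread, and the call was lost without replicate 3 or 4 of 91 d or replicate 1 of 133 d, at log2 changes of -2.42 (adjusted p = 0.0566), -2.15 (adjusted p = 0.0714) and -2.25 (adjusted p = 0.0897). SIP2-1 (03l_1128) rose from 22.5, 15.9, 15.4 and 21.0 FPKM at 91 d to 44.1, 38.8 and 47.6 FPKM at 133 d (log2 change 1.19 ± 0.21 SE, adjusted p = 0.000234).

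Defence proteins had 29 of 117 higher and 39 lower, with a median log2 change of -0.12. Their share of transcripts went from 1.38% ± 0.0883 (SD, n = 4) to 2.21% ± 0.462 (SD, n = 3). Their summed level was 7153 to 9101 FPKM at 91 d and 12213 to 17472 FPKM at 133 d. That rise lay largely in Endochitinase A, given next. Endochitinase A (22l_402_22l_403) was among the 5 most abundant transcripts at 133 d. Its libraries held 45.8, 28.1, 23.8 and 30.5 FPKM at 91 d and 8912, 4043 and 3908 FPKM at 133 d. This was a log2 change of 7.34 ± 0.42 (SE, adjusted p = 1.63e-09). Replicate 1 of 133 d was the highest library, and all 4 of 91 d were low. Acidic endochitinase (19l_498) rose from 4.28, 3.49, 6.98 and 4.37 FPKM at 91 d to 128, 145 and 87.2 FPKM at 133 d (log2 change 4.39 ± 0.40 SE, adjusted p = 1.96e-07). Class V chitinase (01l_35), chosen after its values were seen, rose from 132, 91.1, 54.4 and 74.98 FPKM to 1081, 844 and 1125 FPKM, a log2 change of 3.57 ± 0.22 (SE, adjusted p = 2.98e-09). A further Endochitinase EP3 (22l_419), beside the one with the largest fall, fell from 82.5, 135, 199 and 95.4 FPKM at 91 d to 5.43, 2.27 and 1.99 FPKM at 133 d (log2 change -4.93 ± 0.46 SE, adjusted p = 2.35e-07). Over all chitinases 8 of 31 were higher and 10 lower. Thaumatin-like proteins had 4 of 24 higher and 12 lower, and beta-1,3-glucanases 14 of 45 higher and 11 lower.

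Heat shock genes had 14 of 78 higher and 28 lower, with TPM 6 and 34, and without replicates 2 and 3 of 91 d 5 and 22. Higher calls numbered 7 or 8 without replicate 2 or 3 of either age. A class IV heat shock protein (01l_4585) rose from 0.266, 0.834, 0.440 and 0.384 FPKM to 141, 235 and 175 FPKM, a log2 change of 6.95 ± 0.35 (SE, adjusted p = 3.49e-10). The peroxisomal 15.7 kDa heat shock protein (03l_966) rose from 17.3, 10.97, 9.27 and 9.70 FPKM at 91 d to 48.2, 40.5 and 42.4 FPKM at 133 d (log2 change 1.84 ± 0.23 SE, adjusted p = 5.76e-06). Heat shock cognate 70 kDa protein (09l_453_09l_454) fell from 4.30, 6.95, 7.93 and 6.91 FPKM to 0.561, 0.499 and 0.315 FPKM, a log2 change of -2.34 ± 0.20 (SE, adjusted p = 9.27e-08). HSF30 (01l_1567), a heat shock transcription factor, fell from 4.91, 3.97, 10.1 and 11.3 FPKM at 91 d to 0.892, 1.27 and 1.37 FPKM at 133 d (log2 change -1.88 ± 0.28 SE, adjusted p = 3.20e-05).

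Metallothioneins, small metal-binding proteins, were among the most abundant transcripts. Metallothionein-like protein type 2 (16l_632_16l_633) did not pass the test. It had 26580.0, 22075, 16597 and 16114 FPKM at 91 d, and 20696, 20962 and 18929 FPKM at 133 d. The ages overlapped. The log2 change was 0.02 ± 0.33 (SE), with an adjusted p of 0.969. Metallothionein-like protein type 3 (09l_2186) fell from 10374, 9303, 6482 and 5859 FPKM at 91 d to 2649.7, 1754 and 2404 FPKM at 133 d (log2 change -1.80 ± 0.29 SE, adjusted p = 8.01e-05). Metallothionein-like protein 2 (16l_631), next to the type 2 gene, fell from 3611, 3338, 2467 and 2247 FPKM to 301, 251 and 328 FPKM, a log2 change of -3.29 ± 0.33 (SE, adjusted p = 5.19e-07). With the antioxidant enzymes these genes had 22 of 98 members higher and 26 lower, but 14 and 34 with TPM, and their share of transcripts went from 6.81% ± 1.16 (SD, n = 4) to 4.80% ± 0.222 (SD, n = 3). Glutathione S-transferase F11 (03l_1197), which conjugates glutathione, rose from 0.940, 0.0703, 0.401 and 0.145 FPKM at 91 d to 34.5, 51.7 and 80.3 FPKM at 133 d (log2 change 5.30 ± 0.55 SE, adjusted p = 8.44e-07). Glutathione S-transferase U7 (16l_960) rose from 5.09, 2.42, 2.76 and 0.585 FPKM to 39.98, 33.2 and 138 FPKM, a log2 change of 4.12 ± 0.75 (SE, adjusted p = 0.000245). Phospholipid hydroperoxide glutathione peroxidase (10l_433) fell from 81.8, 56.5, 62.1 and 70.8 FPKM at 91 d to 8.82, 12.4 and 12.6 FPKM at 133 d (log2 change -2.49 ± 0.44 SE, adjusted p = 0.000182). The other most abundant genes with a name were the translationally-controlled tumor protein homolog (22l_2314) and glycine-rich RNA-binding protein 7 (20l_2435). The former fell from 6655, 4552, 4184 and 5144 FPKM to 2351, 3488 and 3239 FPKM, a log2 change of -0.76 ± 0.20 (SE, adjusted p = 0.00545). The latter went from 6275, 4601, 4772 and 4517 FPKM at 91 d to 2465, 3973 and 4001 FPKM at 133 d (log2 change -0.56 ± 0.25 SE, adjusted p = 0.0837). The former lost its call with no expression filter (adjusted p = 0.233) and with only the groups compared (adjusted p = 0.0633). The latter was called lower in 5 alternatives, among them TPM, at -0.73 (adjusted p = 0.0192), and voom, at -0.56 (adjusted p = 0.0361). The remaining 3 (01l_3568, 01l_3518 and 22l_817) have no protein name. Gene 01l_3568 fell from 4875, 3901, 3737 and 3461 FPKM to 1319.8, 1759.5 and 1826 FPKM, a log2 change of -1.29 ± 0.27 (SE, adjusted p = 0.00095). Gene 01l_3518 rose from 1083, 1932, 1727 and 1781 FPKM at 91 d to 20782, 8940.0 and 9190.0 FPKM at 133 d (log2 change 2.91 ± 0.42 SE, adjusted p = 2.62e-05). Gene 22l_817 rose from 580.1, 857, 904 and 624 FPKM to 6138, 2219 and 2007 FPKM, a log2 change of 2.05 ± 0.38 (SE, adjusted p = 0.000272).

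Cytosolic ribosomal proteins, the housekeeping parts of the translation machinery, had 35 of 153 higher and 14 lower, but 12 and 33 with TPM, 12 and 32 with library totals and 10 and 44 with quantile normalization, so their direction followed the scaling. Ribosomal protein L10 (12l_126) rose from 158, 134, 143 and 144 FPKM at 91 d to 232, 256 and 253 FPKM at 133 d (log2 change 0.77 ± 0.12 SE, adjusted p = 5.37e-05). S21-2 (22l_2292) rose from 76.1, 62.0, 74.2 and 67.3 FPKM to 144, 105 and 108 FPKM, a log2 change of 0.75 ± 0.13 (SE, adjusted p = 0.000158). L7a-1 (19l_1136) fell from 956, 818, 726 and 798 FPKM at 91 d to 389, 575 and 538 FPKM at 133 d (log2 change -0.73 ± 0.15 SE, adjusted p = 0.000568). L3-2 (01l_39) fell from 6.88, 7.20, 8.58 and 7.98 FPKM to 4.08, 3.27 and 3.37 FPKM, a log2 change of -0.92 ± 0.26 (SE, adjusted p = 0.00764). Cell division genes and histones had 12 of 64 higher and 17 lower, with a median log2 change of -0.20. D-type cyclins, which start the cell cycle, had 1 of 7 higher and 5 lower, and histones 8 of 29 in each direction. Cyclin-D1-1 (24l_690) fell from 54.5, 39.7, 57.4 and 61.0 FPKM at 91 d to 6.31, 7.45 and 6.67 FPKM at 133 d (log2 change -2.78 ± 0.27 SE, adjusted p = 4.81e-07). Histone H2B.2 (16l_287) fell from 45.7, 16.4, 17.6 and 36.5 FPKM to 0.930, 1.51 and 3.19 FPKM, a log2 change of -3.33 ± 0.36 (SE, adjusted p = 1.10e-06). Histone H1 (19l_3074) rose from 196, 165, 112 and 103 FPKM at 91 d to 345, 470.3 and 549 FPKM at 133 d (log2 change 1.68 ± 0.20 SE, adjusted p = 3.53e-06). Ribonucleotide reductase small chain (09l_165), which makes DNA precursors, rose from 1.304, 1.25, 1.47 and 0.229 FPKM to 4.23, 20.8 and 19.0 FPKM, a log2 change of 2.72 ± 0.56 (SE, adjusted p = 0.000682).

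Markers of tissues other than the flesh were followed beside these lists. In whole hulls, fewer cells of a type and less RNA per cell cannot be told apart. Green tissue markers had 2 of 15 higher and 7 lower, with a summed level of 612 to 899.5 FPKM at 91 d and 479.5 to 579.8 FPKM at 133 d. They share the chlorophyll a-b binding proteins with the photosystem list, so the marker counts are not separate from that list. Epidermis markers had 6 of 18 higher and 7 lower (205 to 219.6 FPKM at 91 d, 183 to 221 FPKM at 133 d). Secondary wall markers, a sign of shell, had 6 of 14 in each direction (100.3 to 120.2 FPKM, then 173 to 194 FPKM). Phloem and xylem markers had 5 of 21 higher and 9 lower (612 to 803 FPKM, then 477 to 669 FPKM). Seed storage and oil body markers had 0 of 13 higher and 1 lower (187 to 274 FPKM, then 112 to 147 FPKM). An oleosin (02l_681), a coat protein of oil bodies chosen after its values were seen, fell from 45.8, 29.6, 56.6 and 74.2 FPKM at 91 d to 0.133, 0.249 and 0.257 FPKM at 133 d (log2 change -5.36 ± 0.39 SE, adjusted p = 2.13e-08). Of the 26 seed, 27 shell, 36 vascular, 30 epidermis and 20 green markers, 6, 4, 5, 5 and 2 had no read in any of the 7 libraries. The part of these tissues in the changes above was not tested.

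The age change of Golden Hills was set against that of intact Lost Hills hulls to ask where the cultivars ripen differently. In Lost Hills 6249 genes were called (31.7%), 3159 higher and 3090 lower. Of all genes 4679 were called in the same direction in both cultivars, 52.4% of the Golden Hills calls and 74.9% of the Lost Hills calls, and 70 in opposite directions. Across genes the 2 changes had a Pearson r of 0.811 and a Spearman rho of 0.727, which describe 19716 genes that are not independent. The interaction was called for 649 genes (3.29%), 405 of them positive, meaning a higher change in Golden Hills, and at an unadjusted p under 0.05 there were 3630. With TPM 38.2% of the interaction calls were positive, against 62.4% on the deposited scale, and the median interaction of all genes was -0.12. Of the 649 genes, 359 changed in the same direction in both cultivars and further in Golden Hills, 26 in the same direction and further in Lost Hills, and 264 in opposite directions. Without replicates 2 and 3 of Golden Hills at 91 d 336 genes were called. Without replicate 1 of Lost Hills at 133 d 375 were called, without replicate 2 of Golden Hills at 133 d 392, and without replicate 3 of Lost Hills at 91 d 414.

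Beside ethylene, such genes were frequent in pectin backbone and side chain enzymes, with 9 of 56, all positive, and auxin, with 9 of 72, 3 of them positive. Without replicates 2 and 3 of Golden Hills at 91 d these were 4 and 3. Left out singly, replicate 1 of Lost Hills at 133 d gave 5 for pectin, and libraries gave 4 to 7 for auxin. Of the pectin genes described above, beta-galactosidase 01l_1184 and pectin acetylesterase 8 were among them, with interactions of 1.49 (adjusted p = 0.0162) and 0.998 (adjusted p = 0.0216). Without the 2 replicates these were 1.40 (adjusted p = 0.0701) and 0.95 (adjusted p = 0.0708). Pectin acetylesterase 8 also lost its call without replicate 1 of either cultivar at 133 d (adjusted p = 0.0527 and 0.0636). XTH 09l_1174, described above, was a loosening enzyme with a called interaction. Its Lost Hills libraries held 34.97, 42.3, 82.8 and 24.8 FPKM at 91 d and 24.8, 72.5 and 72.8 FPKM at 133 d, a log2 change of 0.28 ± 0.42 (SE, adjusted p = 0.654). Golden Hills minus Lost Hills, the log2 changes differed by 3.34 ± 0.59 (SE, adjusted p = 0.005). Gibberellin-regulated protein 1 rose in both cultivars. In Lost Hills it had 0.585, 0.206, 2.48 and 0.766 FPKM at 91 d and 45.9, 87.7 and 142 FPKM at 133 d (log2 change 5.51 ± 0.50 SE, adjusted p = 7.17e-07). The interaction was 3.35 ± 0.71 (SE, adjusted p = 0.0143). Without the 2 replicates that interaction was 2.76 (adjusted p = 0.071), and it was not called with a pseudocount of 0.1 (adjusted p = 0.102) or with voom (adjusted p = 0.347).

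The 3 largest positive interactions belonged to genes that stayed at or under 2.56 FPKM in every Lost Hills library. GDSL lipase 12l_365, of a family of esterases, rose from 0.200, 0.0523, 0.0497 and 0.0542 FPKM to 122, 105 and 101 FPKM, a log2 change of 6.66 ± 0.30 (SE, adjusted p = 7.05e-11). Lost Hills had 0 FPKM in all 4 libraries at 91 d and 0, 0.0553 and 2.56 FPKM at 133 d, a log2 change of 0.64 ± 0.30 (SE, adjusted p = 0.111). The change differed between cultivars by 6.02 ± 0.42 (SE, adjusted p = 3.49e-07). Purple acid phosphatase 22 (11l_177), which frees phosphate, rose from 0.187, 0.0489, 0.0465 and 0 FPKM at 91 d to 23.03, 52.9 and 49.99 FPKM at 133 d (log2 change 5.24 ± 0.24 SE, adjusted p = 1.15e-10). Its Lost Hills libraries held 0.104, 0.0918, 0.0503 and 0 FPKM at 91 d and 0.146, 0.465 and 0.849 FPKM at 133 d, a log2 change of 0.46 ± 0.24 (SE, adjusted p = 0.161). Golden Hills minus Lost Hills, the log2 changes differed by 4.78 ± 0.34 (SE, adjusted p = 3.96e-07). PERK12 (01l_3424), a proline-rich receptor-like kinase at the cell wall, rose from 0, 0, 0.0236 and 0.0257 FPKM to 20.4, 53.8 and 45.3 FPKM, a log2 change of 5.23 ± 0.30 (SE, adjusted p = 1.48e-09). In Lost Hills it had 0, 0, 0 and 0.124 FPKM at 91 d and 0.198, 2.15 and 1.67 FPKM at 133 d (log2 change 1.07 ± 0.30 SE, adjusted p = 0.0112). The interaction was 4.16 ± 0.42 (SE, adjusted p = 3.48e-05). With voom the PERK12 interaction was 5.46 (adjusted p = 0.221).

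The 3 largest negative interactions were of genes higher at 133 d in Lost Hills. HEADING DATE 3A (07l_1553), named for the rice florigen, went from 2.07, 5.55, 1.34 and 1.07 FPKM at 91 d to 0.667, 2.61 and 4.31 FPKM at 133 d (log2 change 0.01 ± 0.55 SE, adjusted p = 0.987). Lost Hills had 6.52, 3.18, 1.55 and 9.96 FPKM at 91 d and 56.3, 187 and 86.2 FPKM at 133 d, a log2 change of 4.17 ± 0.55 (SE, adjusted p = 2.58e-05). The change differed between cultivars by -4.15 ± 0.77 (SE, adjusted p = 0.00685). With voom this was -4.51 (adjusted p = 0.0674). Peroxidase 17 (13l_1099) fell from 119, 48.7, 42.3 and 67.3 FPKM to 3.65, 7.21 and 16.9 FPKM, a log2 change of -2.88 ± 0.35 (SE, adjusted p = 4.41e-06). Its Lost Hills libraries held 31.95, 48.2, 40.6 and 45.4 FPKM at 91 d and 111, 94.6 and 77.8 FPKM at 133 d, a log2 change of 1.17 ± 0.35 (SE, adjusted p = 0.0169). Golden Hills minus Lost Hills, the log2 changes differed by -4.04 ± 0.50 (SE, adjusted p = 0.0002). Trehalose-phosphate phosphatase J (13l_101), which makes trehalose, fell from 61.1, 32.2, 16.7 and 24.8 FPKM at 91 d to 22.3, 7.71 and 17.8 FPKM at 133 d (log2 change -0.997 ± 0.38 SE, adjusted p = 0.0423). In Lost Hills it had 11.8, 20.8, 20.8 and 19.3 FPKM at 91 d and 142, 120.4 and 95.1 FPKM at 133 d (log2 change 2.66 ± 0.38 SE, adjusted p = 6.39e-05). The interaction was -3.66 ± 0.54 (SE, adjusted p = 0.00123). Its Golden Hills ages overlapped, and the fall was not called without replicate 1 or 2 of 91 d (adjusted p = 0.141 and 0.0782) or replicate 2 or 3 of 133 d (adjusted p = 0.259 and 0.0533). The Lost Hills libraries of 133 d stood above all other libraries for these 3 genes, except that replicate 1 of Golden Hills at 91 d, at 119 FPKM, was the highest for Peroxidase 17.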

How the data were processed

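Poly-T selected RNA of whole hulls was sequenced as dUTP strand-marked libraries, per the labels' protocols. The submitters' processing notes list HISAT2 2.0.5, StringTie 1.3.3b and featureCounts 1.5.0-p3, with no roles, and the genome build is not given in the sources used here. The authors deposited FPKM values for 39783 genes. Multiplied by gene length and a factor per library drawn from the values themselves, they gave whole reads for 100.0% of values (tolerance 0.01). The library sizes implied by these factors were proportional, within 0.0055%, to size factors computed from the reads. The deposited scale thus already holds size factors. One row is not reported here. Replicate pairs differed by a chi-square per gene of 8.51 to 55.4, so none is a duplicate.

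Genes reaching 1 FPKM in 3 or more libraries were tested on log2(FPKM + 1) with limma 3.58.1 (R 4.3.3, Python 3.11.15), fitted over all 20 libraries in 6 groups with a trended variance, at a Benjamini-Hochberg adjusted p under 0.05. The interaction is the Golden Hills age change minus that of Lost Hills. The fit was checked on simulated data.

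Named genes were called, reached 5 FPKM in the higher group and did not overlap: the 5 largest rises and falls with a protein name, and in each list the largest of each direction, with the second where at least 8 were called. The 5 most abundant genes of each age and the 3 largest interactions of each sign were added, and other genes are said to be chosen after their values were seen. The members and lists were chosen with earlier results of these data known. Alternatives changed the pseudocount, filter, scaling, variance model, block and libraries. No sequences could be matched to the gene identifiers.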

Additional observations from a re-analysis of the deposited data

Results flagged for a closer look

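In 14 cases 1 of the 4 Golden Hills libraries of 91 d was flagged as lying apart from the other 3. Chance flags about 1 in 20 groups, and the number of groups examined is not given here. In FPKM these values were 0.04794 for Polygalacturonase (22l_142, replicate 4), 4.434 for Cellulose synthase-like protein G3 (10l_175, replicate 3), 2.284 for jasmonic acid carboxyl methyltransferase 1 (19l_1713, replicate 1), 859 for Inactive beta-amylase 9 (22l_1796, replicate 1) and 0.1856 for MYB-like transcription factor EOBII (19l_2659, replicate 1). Further such values were 15.09 for Transcription factor MYB82 (01l_1561, replicate 4), 6275 for Glycine-rich RNA-binding protein 7 (20l_2435, replicate 1), 0.2 for GDSL lipase (12l_365, replicate 1), 56.79 for Expansin-A8 (09l_85, replicate 3) and 150.1 for Protein ETHYLENE INSENSITIVE 3 (09l_986, replicate 4). As shares of TPM they were 0.3333% for photosystems and light harvesting (replicate 1), 0.2666% for ethylene (replicate 4), 0.4867% for ethylene-responsive transcription factors (replicate 4) and 0.04496% for seed storage and oil bodies (replicate 1). The values for Polygalacturonase and EOBII lay near the floor, as the other libraries of 91 d held 0 FPKM.

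For 36 genes the age change differed between the cultivars by limma's interaction test. The difference is given as the log2 change in Golden Hills minus that in Lost Hills. It was 3.352 for Gibberellin-regulated protein 1 (24l_682), 3.326 for Desiccation-related protein PCC13-62 (19l_938), 3.108 for Laccase-14 (01l_3674), 1.541 for Chlorophyllide a oxygenase (01l_3269), 2.559 for Cellulose synthase-like protein B4 (19l_1870) and 2.372 for Cellulose synthase-like protein G3 (10l_175). Positive differences were also 2.374 for Ethylene receptor 2 (22l_2191), 2.417 for EIN3-binding F-box protein 2 (01l_1535), 2.372 for Ethylene-responsive transcription factor ERF106 (04l_956), 2.943 for Stearoyl-[acyl-carrier-protein] 9-desaturase (22l_323), 3.293 for aspartic proteinase GIP2 (19l_3237) and 3.466 for Acidic endochitinase (19l_498). Others were 2.508 for class IV heat shock protein (01l_4585), 1.396 for 15.7 kDa heat shock protein (03l_966), 6.024 for GDSL lipase (12l_365), 4.782 for Purple acid phosphatase 22 (11l_177), 4.156 for Proline-rich receptor-like protein kinase PERK12 (01l_3424) and 1.488 for Beta-galactosidase (01l_1184). Further values were 0.9975 for Pectin acetylesterase 8 (19l_2564), 3.344 for xyloglucan endotransglucosylase/hydrolase protein B (09l_1174), 1.828 for Protein REVERSION-TO-ETHYLENE SENSITIVITY1 (01l_1590), 1.326 for Ethylene response sensor 1 (19l_868), 1.76 for EIN3-binding F-box protein 2 (01l_2106) and 1.423 for Very-long-chain aldehyde decarbonylase CER3 (01l_292). More were 1.369 for Ethylene-insensitive protein 2 (03l_1383) and 0.644 for Serine/threonine-protein kinase CTR1 (09l_806). Negative differences were -1.708 for Chlorophyll a-b binding protein 21 (17l_2157), -1.938 for Auxin-induced protein AUX28 (07l_903), -0.7579 for MADS-box protein EJ2 (24l_20), -1.915 for NAC domain-containing protein 104 (13l_759) and -0.6934 for WRKY transcription factor 21 (19l_3079). The rest were -3.393 for Endochitinase EP3 (22l_419), -4.155 for Protein HEADING DATE 3A (07l_1553), -4.045 for Peroxidase 17 (13l_1099), -3.658 for trehalose-phosphate phosphatase J (13l_101) and -1.624 for (R)-limonene synthase 1 (17l_921). Under the alternatives run the threshold was missed in 20 for 17l_921, 17 for 01l_3674, 12 for 09l_806, 12 for 01l_292, 11 for 19l_3079, 7 for 01l_3269, 7 for 03l_966, 5 for 19l_2564, 5 for 07l_903 and 5 for 24l_20, and in 1 to 4 for 18 more. With limma's voom on recovered reads the differences were 1.874 (adjusted p = 0.415) for 19l_498, 2.052 (adjusted p = 0.467) for 19l_3237, 2.974 (adjusted p = 0.476) for 19l_938 and 2.93 (adjusted p = 0.289) for 01l_4585.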

How the results depend on the processing

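The Golden Hills age change gave 7709 to 8814 calls when each of its libraries was left out in turn (higher 3936 to 4522, lower 3773 to 4292). The interaction gave 375 to 685 (higher 246 to 392, lower 116 to 294), the lowest without replicate 1 of Lost Hills at 133 d. Without replicate 2 of both 91 d groups it gave 411 (263 higher, 148 lower), and without replicates 2 and 3 of Golden Hills at 91 d 336 (213 and 123). With a mean of at least 5 FPKM 2842 Golden Hills genes were lower, and with a log2 change of at least 1 3037 were called (1502 higher, 1535 lower), while 161 interaction genes were lower. TPM and library totals gave 468 and 432 lower interaction calls. Array weights gave 2024 interaction calls (1166 higher, 858 lower). The causes were not tested. Same-numbered libraries did not deviate together (correlations -0.0275, -0.003 and -0.103), and not every library correlated best with its own number. A replicate block gave 5858 Golden Hills calls (2929 higher) and 127 interaction calls (99 higher, 28 lower), with 2 of 24 ethylene genes. Depth limits genes of low level, since 1 FPKM at the median gene length is 18.0 reads. Under the alternatives run no called change of a named gene reversed its direction, while the majority of some lists did with another scaling, as given beside them.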

Other observations

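Some genes went from nearly silent to clearly expressed. At most 3 reads in every library of 91 d and at least 5 FPKM in every library of 133 d were found for 32 genes, and the reverse for 14, a rule applied after values were seen. Among the 32 were the transcription factor NF-Y subunit B-9 (09l_2906), with a log2 change of 6.27 in Golden Hills and 5.66 in Lost Hills, and the signalling peptide TAXIMIN 2 (19l_2181), with 5.71 and 3.88. A pair of genes named premnaspirodiene oxygenase, an enzyme that oxidises a sesquiterpene, was also in this group. Their log2 changes were 5.60 (09l_2855) and 3.94 (09l_2841) in Golden Hills. Synthases named for sesquiterpenes went both ways. Germacrene D synthase 09l_2483 and alpha-farnesene synthase rose (1.35 and 1.32), while nerolidol synthase 1 fell (-4.21). Germacrene D synthase 09l_2399 and a beta-farnesene synthase (09l_2452) were not called. Peroxidase 3 (22l_1820) rose by 4.15 in Golden Hills and 1.56 in Lost Hills. The strongest of the 32 was a gene without a protein name (01l_2648), whose mean went from 0.0771 FPKM to 737 FPKM. Among the 14 were an oleosin, a nerolidol synthase and the basic blue protein (17l_1068), a small copper protein, with a log2 change of -4.10.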
